A study of Mus musculus with 18 samples.

Results

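The 10 genes described here carry the signal of insulin and the insulin-like growth factors (IGFs) in the tibialis anterior muscle of the mouse hindlimb. They are the ligands Igf1 and Igf2, the receptors Igf1r and Insr, the adaptors Irs1 and Irs2, the kinases Akt1 and Akt2, the phosphoinositide 3-kinase subunit Pik3r1 and the binding protein Igfbp5. They were taken by name from 20922 genes measured by RNA sequencing in 18 libraries, and all 10 were among the 12262 genes tested, those whose normalized count averaged 10 or more. BKO ligated (n = 4) is muscle of the limb whose femoral artery was ligated, in mice labelled as skeletal muscle knockouts of the clock gene Bmal1. BKO intact (n = 5) is the opposite limb of such mice. WT ligated (n = 4) and WT intact (n = 5) are the same limbs of control mice. All 4 groups carried floxed Bmal1, received doxycycline and had surgery a week after the last dose, and their muscle was taken at day 36. Cre came from an ACTA-rtTA-TRE-Cre transgene meant for skeletal muscle, so other cell types of the sample were not its target. No source used here gives the age of the mice or the hour of collection.

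Insulin and the IGFs bind receptor tyrosine kinases, which phosphorylate insulin receptor substrate (IRS) adaptors. These recruit phosphoinositide 3-kinase, and the lipid it makes brings AKT kinases to the membrane. In muscle this route promotes glucose uptake and protein synthesis and holds back FOXO factors, and IGFs also act on muscle stem cells during regeneration.

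The libraries held 14.1 to 25.6 M reads (M for mega) assigned to genes, and the mitochondrial ribosomal RNA mt-Rnr2 took 40.9% to 55.5% of them in BKO ligated, 38.1% to 45.3% in WT ligated, 33.6% to 36.1% in BKO intact and 31.9% to 34.3% in WT intact. Its share was thus higher in every ligated than in every intact library, and its part in the changes below was tested only by rescaling and by leaving out libraries. The labels write Cre as +/+ in controls and as -/- in knockouts, the reverse of what a Cre deletion needs. The Bmal1 gene (Arntl in the table) averaged 70.0 ± 8.35 normalized counts in BKO ligated (SD, n = 4), against 16.2 ± 2.72 in WT ligated (SD, n = 4). It averaged 49.9 ± 7.0 in BKO intact (SD, n = 5), against 56.3 ± 11.8 in WT intact (SD, n = 5), so total Bmal1 counts do not follow the labels; which exons were counted was not separable here. Its known target Dbp averaged 205 ± 24.6 in BKO intact (SD, n = 5) and 721 ± 84.8 in WT intact (SD, n = 5), with a log2 fold change of -1.81 ± 0.12 (SE, limma adjusted p = 1.31e-09). In ligated muscle Dbp averaged 274 ± 56.0 in BKO and 751 ± 85.2 in WT (SD, n = 4 each). Nr1d2, another clock gene, averaged 524 ± 37.8 in BKO intact and 1675 ± 69.3 in WT intact (SD, n = 5 each). It averaged 508 ± 68.5 in BKO ligated and 1592 ± 96.3 in WT ligated (SD, n = 4 each). Dbp and Nr1d2 were thus lower in the groups named BKO, while total Bmal1 counts did not follow the labels. The direction of each genotype comparison below rests on the group names. Markers of myofibres were high in every library, with 6 of 6 detected.

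Values are normalized counts, which are not corrected for gene length. Where every library is given, the order is that of the library numbers: 2, 4, 5 and 6 in BKO ligated and in WT ligated, 1 to 5 in BKO intact and 2 to 6 in WT intact. Tests are limma on log2(normalized count + 1), with p adjusted by Benjamini-Hochberg over the 12262 genes. A gene was called at an adjusted p under 0.05.

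With ligation in BKO, 5 of the 10 genes rose (Igf2, Igf1r, Insr, Irs2 and Akt1) and 1 fell (Akt2), while 47.2% of all tested genes were called, 22.1% higher and 25.1% lower. With ligation in WT, 3 rose (Igf1, Igf2 and Akt1) and 3 fell (Irs1, Akt2 and Igfbp5), beside 39.8% of all tested genes, 18.7% higher and 21.1% lower. In BKO against WT ligated muscle 2 were higher (Insr and Irs1), beside 8.84% of all genes, 4.16% higher and 4.68% lower. None of the 10 was called lower there by limma, though 2, Akt1 and Igfbp5, had an unadjusted p under 0.05 in that direction. In BKO against WT intact muscle 1 was higher (Akt2) and 3 lower (Irs2, Akt1 and Igfbp5), beside 18.3% of all genes, 8.56% higher and 9.75% lower. The interaction (the change with ligation in BKO less the change in WT) was called for 3 (Igf2, Insr and Irs1), all positive, beside 6.01% of all genes, 3.04% positive and 2.97% negative. The values of the 2 groups did not overlap for 4 of the 10 genes with ligation in BKO (35.7% of all genes), 5 with ligation in WT (32.5%), 2 for BKO against WT ligated (12.9%) and 4 for BKO against WT intact (14.4%). The comparisons share libraries, so these counts are not independent of each other.

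**Figure D1:**
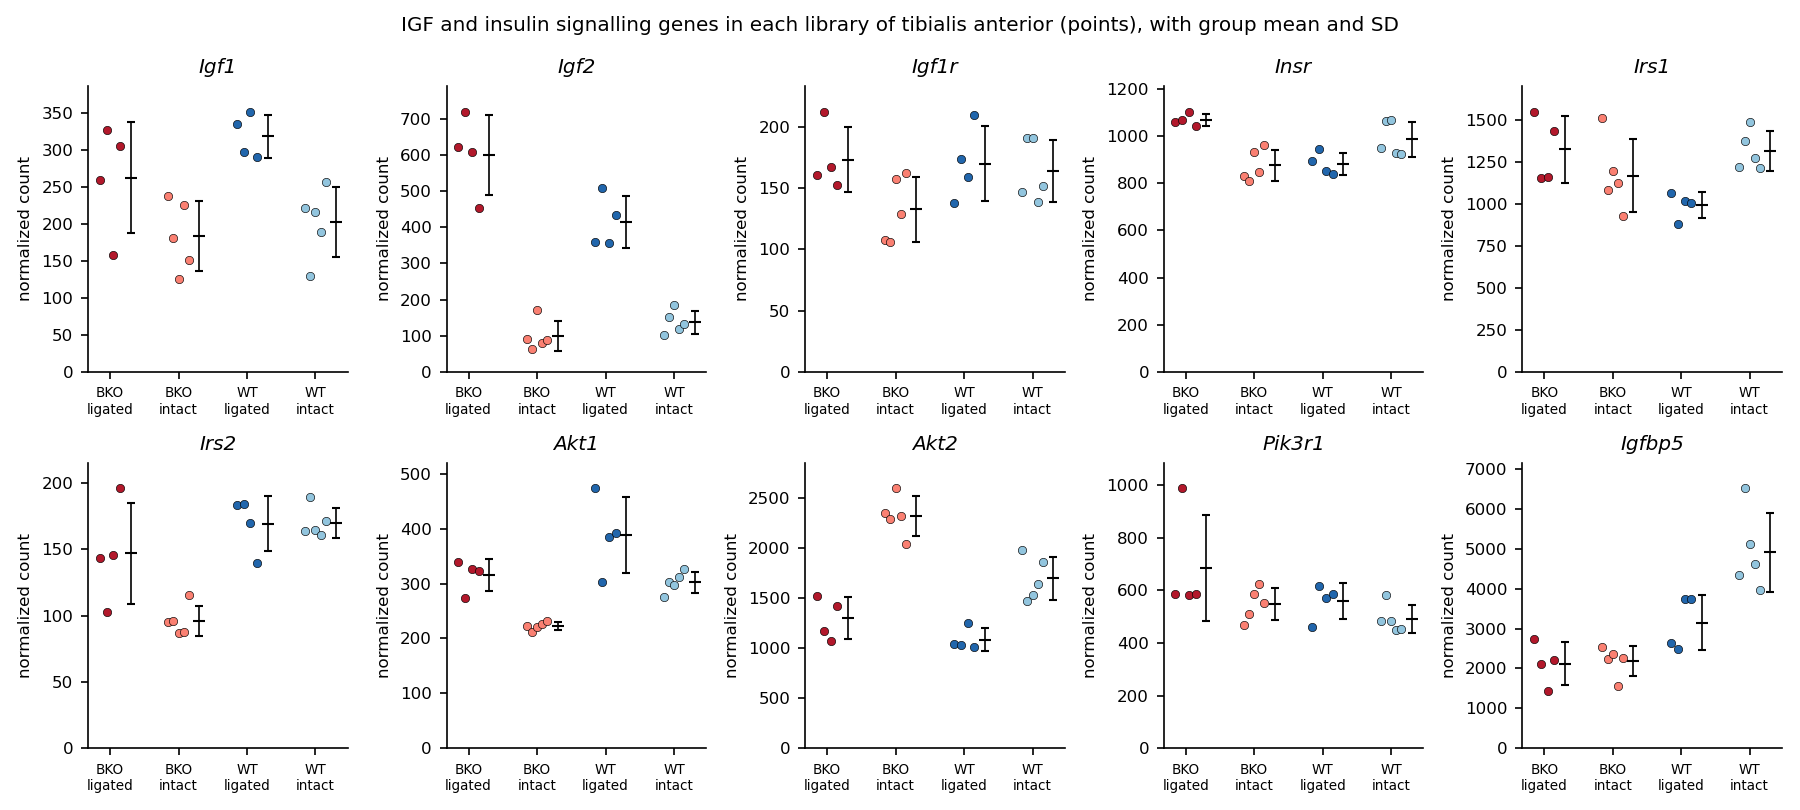
Normalized counts of the 10 genes in every library, in BKO ligated, BKO intact, WT ligated and WT intact muscle. Points are libraries, and the bar beside them gives the mean and SD (n = 4 ligated, n = 5 intact); Igf2 in both ligated groups lies above every intact library, and Akt2 in BKO intact above every other library.

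**Figure D2:**
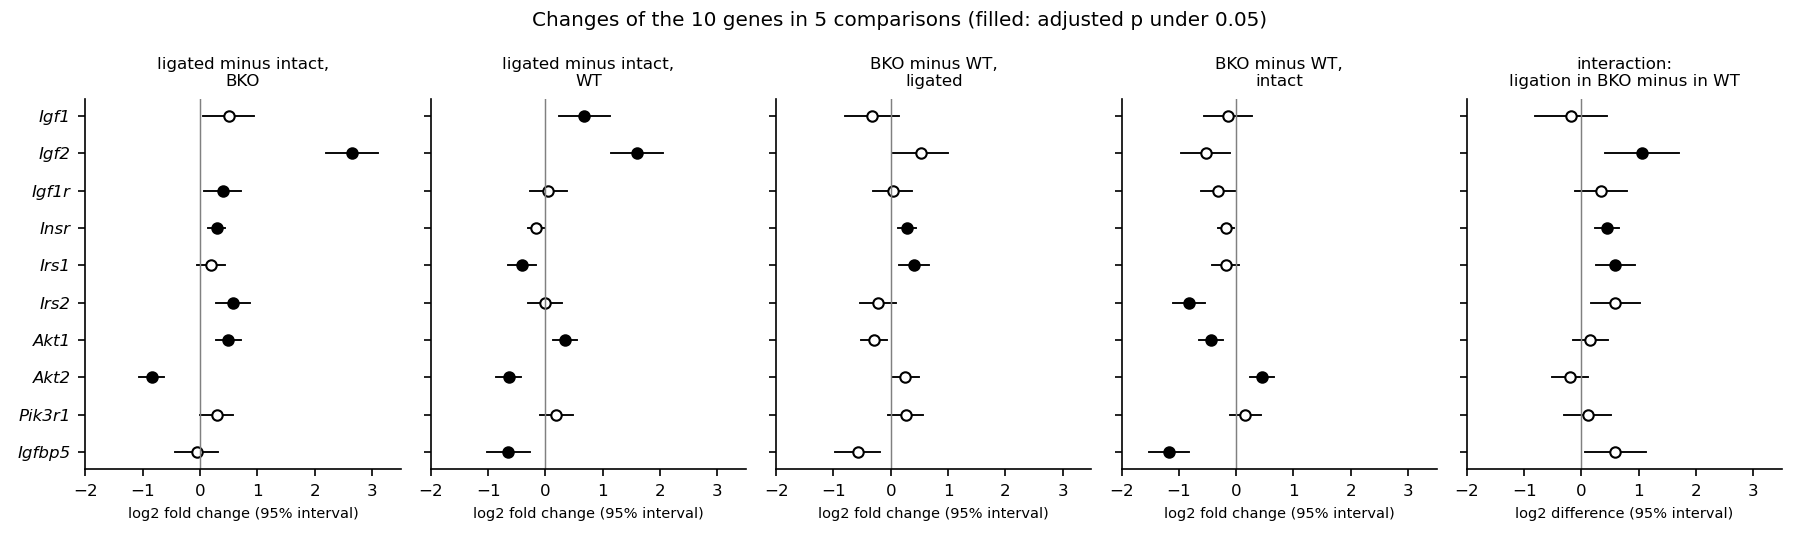
Log2 fold changes of the 10 genes with their 95% intervals in 5 comparisons from 1 limma fit; filled points have an adjusted p under 0.05. The Igf2 ligation effect, 2.66 in BKO and 1.60 in WT, is the largest of the 10 genes in both genotypes.

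Levels compared between genes were divided by the summed length of their annotated exons, in normalized counts per kb. In WT intact muscle Igfbp5 stood highest at 817 ± 164 per kb (SD, n = 5), with Akt2 at 238 ± 30.1 and Irs1 at 144 ± 12.8. Akt1 at 73.8 ± 4.64 and Insr at 71.8 ± 5.35 differed by less than their SDs. Pik3r1 had 48.7 ± 5.38 per kb, and Igf1r had the lowest level at 9.76 ± 1.5. Irs2 at 26.9 ± 1.83, Igf2 at 24.0 ± 5.57 and Igf1 at 20.5 ± 4.81 lay within an SD or so of their neighbours. In BKO ligated muscle Igf2 reached 105 ± 19.3 per kb (SD, n = 4), which moved it to the fourth place among the 10, behind Igfbp5 at 353 ± 89.1, Akt2 at 182 ± 29.4 and Irs1 at 145 ± 21.7. Annotated exons include ones a muscle may not use, so these levels order the genes only roughly.

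Igf2 (chr7:142650766-142666816, minus strand, mm10) encodes a growth factor that is imprinted and highest in the fetus. Its normalized counts were 622, 719, 609 and 452 in BKO ligated, against 90.7, 64.3, 172, 78.7 and 88.2 in BKO intact libraries. They were 360, 509, 358 and 435 in WT ligated, against 103, 150, 185, 118 and 131 in WT intact libraries. Every ligated library lay above every intact library of either genotype. Igf2 rose with ligation by 2.66 ± 0.22 (log2 fold change ± SE, 6.31-fold, adjusted p = 1.10e-08) in BKO and by 1.60 ± 0.22 (3.03-fold, adjusted p = 7.49e-06) in WT. Neither call was lost in any alternative that was run.

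The rise of Igf2 was larger in BKO than in WT, with an interaction of 1.06 ± 0.31 on the log2 scale (SE, limma adjusted p = 0.0466). BKO ligated against WT ligated differed by 0.53 ± 0.23 (adjusted p = 0.173) and BKO intact against WT intact by -0.53 ± 0.21 (adjusted p = 0.0822), neither of them called. The interaction call was close to the threshold: it ended when any 1 of 14 of the 18 libraries was left out (adjusted p 0.0502 to 0.101), and held without BKO ligated 6, BKO intact 3, WT ligated 4 or WT intact 2. Without BKO intact 3, the highest of its group, or without WT intact 2, the intact difference between genotypes was called, at -0.75 (adjusted p = 0.00357) and -0.62 (adjusted p = 0.0495).

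H19, a long noncoding RNA, lies beside Igf2 at chr7:142575529-142578143 and is expressed from the other parental chromosome. It had 1781, 1449, 3011 and 1591 normalized counts in BKO ligated, against 998, 1353, 1315, 2311 and 2272 in BKO intact libraries. It had 2870, 2098, 2092 and 3015 in WT ligated, against 1814, 1021, 1080, 1348 and 1665 in WT intact libraries. The BKO groups overlapped and the WT groups did not. H19 rose with ligation by 0.88 ± 0.24 (SE, limma adjusted p = 0.00690) in WT, and its change of 0.26 ± 0.24 (adjusted p = 0.393) in BKO was not called. Its interaction, -0.62 ± 0.34, was not called either (adjusted p = 0.312), so a difference in the H19 response between genotypes was not shown.

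Igf1 (chr10:87858265-87937042, plus strand) encodes the IGF that muscle and stromal cells release after injury. Normalized counts of Igf1 were 260, 328, 158 and 305 in BKO ligated, against 237, 181, 125, 225 and 151 in BKO intact libraries. They were 335, 297, 352 and 291 in WT ligated, against 222, 129, 217, 190 and 257 in WT intact libraries. The WT groups did not overlap, while BKO ligated 5 lay among the BKO intact libraries. Igf1 rose with ligation in WT by 0.68 ± 0.21 (SE, 1.60-fold, limma adjusted p = 0.0156). In BKO the change was 0.50 ± 0.21 (adjusted p = 0.0617), below the call. It was called without BKO ligated 5 (0.72, adjusted p = 0.00687), BKO intact 1 (0.60, adjusted p = 0.0324), BKO intact 4 (0.58, adjusted p = 0.0409) or WT intact 3 (0.50, adjusted p = 0.0395). The change in BKO was also called on the recovered reads with edgeR (0.55, adjusted p = 0.0336) and DESeq2 (0.53, adjusted p = 0.0307). So it was with TMM scaling (0.54, adjusted p = 0.0446) and with the same sum over genes not encoded by mitochondria (0.62, adjusted p = 0.0235). The interaction was -0.18 ± 0.30 (adjusted p = 0.785), with a 95% interval of -0.81 to 0.45.

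The ratio of Igf2 to Igf1 within a library averaged 2.48 ± 0.99 in BKO ligated (SD, n = 4) and 0.610 ± 0.440 in BKO intact (SD, n = 5). In WT ligated it averaged 1.32 ± 0.34 (SD, n = 4), and in WT intact 0.723 ± 0.289 (SD, n = 5). The 2 BKO groups did not overlap. The log2 difference in BKO was 2.16 (exact two-sided permutation p = 0.0159), and adjusted over the 16 ratio tests made here its p was 0.0508. None of the 16 ratio tests passed 0.05 after that adjustment, and 0.0159 is the smallest exact p that 4 ligated against 5 intact libraries allow.

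Igf1 and Igf2 are made by several cell types, and counts in whole muscle cannot tell more cells of a type from more RNA per cell. Markers of fibro-adipogenic progenitors, the stromal cells of muscle, summed to 8402 to 11130 normalized counts in BKO ligated, against 4623 to 8628 in BKO intact. The same 6 of 6 markers summed to 13084 to 14814 in WT ligated, against 7830 to 9614 in WT intact. Satellite cell markers, 4 of 4 detected, summed to 337 to 389 in BKO ligated, against 191 to 267 in BKO intact, and to 233 to 294 in WT ligated, against 207 to 305 in WT intact. Macrophage markers, 7 of 7 detected, summed to 489 to 819 in BKO ligated, against 325 to 646 in BKO intact, and to 907 to 1111 in WT ligated, against 467 to 611 in WT intact. Adipocyte markers, 6 of 6 detected, summed to 804 to 3197 in BKO ligated, against 22.2 to 100 in BKO intact, and to 2373 to 4703 in WT ligated, against 44.3 to 160 in WT intact. Endothelial markers, 6 of 6 detected, summed to 3362 to 4485 in BKO ligated, against 2042 to 2599 in BKO intact, and to 2963 to 3913 in WT ligated, against 1966 to 2444 in WT intact. Myofibre markers, 6 of 6 detected, summed to 0.814 to 0.903 M in BKO ligated, against 0.988 to 1.17 M in BKO intact, and to 0.707 to 0.819 M in WT ligated, against 1.03 to 1.21 M in WT intact, so these sums were lower in every ligated library of a genotype. A sum follows its most abundant genes. Among the myofibre markers this was Myh4, with a mean of 555582 normalized counts. For fibro-adipogenic progenitors it was Gsn (6012), for adipocytes Cfd (823) and for satellite cells Myod1 (197). Of the 6 myofibre markers, 3 were called lower, 0 higher and 3 not called with ligation in each genotype. Their log2 fold changes with ligation ran from -0.95 to 0.16 in BKO and from -0.73 to 0.41 in WT. Of all genes, 25.1% were called lower in BKO and 21.1% in WT, and 22.1% and 18.7% were called higher. With ligation in BKO, 2 of 4 satellite cell, 1 of 7 macrophage and 4 of 6 fibro-adipogenic progenitor markers were called higher. So were 6 of 6 adipocyte and 5 of 6 endothelial markers. In WT the counts called higher were 1, 4, 4, 6 and 4, in that order. None of these markers was called lower with ligation in either genotype. The part of these cells in the change of any of the 10 genes, or of their companions, was not tested.

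Insr (chr8:3122061-3279617, minus strand) encodes the insulin receptor. Its normalized counts were 1059, 1069, 1103 and 1046 in BKO ligated, against 832, 809, 932, 847 and 962 in BKO intact libraries. They were 896, 945, 851 and 842 in WT ligated, against 949, 1066, 1068, 928 and 925 in WT intact libraries. All 4 BKO ligated libraries lay above all WT ligated and all BKO intact ones, while the WT groups overlapped. Insr rose with ligation in BKO by 0.29 ± 0.07 (log2 fold change ± SE, limma adjusted p = 0.00232). Its change in WT was -0.16 ± 0.07 (adjusted p = 0.0838). The interaction of 0.45 ± 0.10 was called (adjusted p = 0.0136) and kept its call without any single library. Without both BKO ligated 4 and 5, the libraries with most mt-Rnr2, it was 0.43 (adjusted p = 0.0607), a check chosen after the data were seen.

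BKO ligated muscle had 0.28 ± 0.08 more Insr than WT ligated muscle on the log2 scale (SE, limma adjusted p = 0.0235). That call ended without BKO ligated 5, WT ligated 5 or WT ligated 6 (adjusted p 0.0650 to 0.0724). In intact muscle BKO minus WT was -0.17 ± 0.07 (adjusted p = 0.0855), and without BKO intact 5 it was called at -0.21 (adjusted p = 0.0454). Both the difference between ligated groups and the interaction of Insr depended on the scaling: with all libraries brought to the same sum of genes not encoded by mitochondria, the interaction was 0.29 (adjusted p = 0.0813) and the ligated difference 0.20 (adjusted p = 0.124).

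Igf1r (chr7:67952827-68233668, plus strand) encodes the receptor that binds IGF1 and, more weakly, IGF2. Normalized counts of Igf1r were 161, 212, 168 and 153 in BKO ligated, against 108, 106, 158, 129 and 163 in BKO intact libraries. They were 138, 174, 159 and 210 in WT ligated, against 147, 191, 191, 139 and 152 in WT intact libraries. All neighbouring groups overlapped. Igf1r rose with ligation in BKO by 0.39 ± 0.16 (SE, limma adjusted p = 0.0423), a call that ended without BKO ligated 2, 4 or 5 or BKO intact 1, 2 or 4 (adjusted p 0.0512 to 0.160). In WT the change was 0.05 ± 0.16 (adjusted p = 0.823), and the interaction of 0.34 ± 0.22 was not called (adjusted p = 0.381). The ratio of Insr to Igf1r averaged 6.26 ± 0.83 in BKO ligated and 5.32 ± 1.02 in WT ligated muscle (SD, n = 4 each), and 6.75 ± 0.88 in BKO intact and 6.08 ± 0.50 in WT intact muscle (SD, n = 5 each). The smallest exact two-sided permutation p of this ratio was 0.1746, with ligation in WT.

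Irs1 (chr1:82233101-82291416, minus strand) encodes the adaptor that links the insulin and IGF1 receptors to phosphoinositide 3-kinase in muscle. Its normalized counts were 1549, 1153, 1164 and 1439 in BKO ligated, against 1516, 1084, 1195, 1124 and 928 in BKO intact libraries. They were 1068, 881, 1018 and 1006 in WT ligated, against 1222, 1379, 1490, 1273 and 1217 in WT intact libraries. All WT ligated libraries lay below all WT intact and all BKO ligated libraries, and the BKO groups overlapped. Irs1 fell with ligation in WT by 0.41 on the log2 scale (-0.41 ± 0.12, SE, limma adjusted p = 0.00908). In BKO its change was 0.19 ± 0.12 (adjusted p = 0.197), and it was called without BKO intact 1, the highest of its group (0.29, adjusted p = 0.0333).

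Irs1 had a positive interaction of 0.59 ± 0.17 (SE, limma adjusted p = 0.0375) and was higher in BKO ligated than in WT ligated muscle by 0.41 ± 0.12 (adjusted p = 0.0423). Both calls were fragile. The interaction call ended when any 1 of 11 libraries was left out (adjusted p 0.0535 to 0.0751), and held without BKO ligated 4 or 5, BKO intact 1 or 3, or WT intact 2, 5 or 6. The call between ligated groups ended without any 1 of 9 libraries, which were BKO ligated 2 and 6, BKO intact 3 and 4, all 4 WT ligated libraries and WT intact 5 (adjusted p 0.0501 to 0.131). With the same sum over genes not encoded by mitochondria, the fall in WT was -0.13 (adjusted p = 0.379) and the interaction 0.44 (adjusted p = 0.0926). With that scaling the change of Irs1 with ligation in BKO was called (0.31, adjusted p = 0.0355). The BKO change was also called with a replicate block by number (0.32, adjusted p = 0.0316).

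Irs2 (chr8:10984681-11008458, minus strand) encodes the second main adaptor, which in liver is known to follow fasting and insulin closely. Normalized counts of Irs2 were 144, 103, 146 and 196 in BKO ligated, against 95.1, 95.9, 86.6, 87.9 and 115 in BKO intact libraries. They were 184, 184, 170 and 140 in WT ligated, against 164, 190, 165, 161 and 172 in WT intact libraries. All 5 BKO intact libraries lay below all 9 WT libraries. Irs2 was lower in BKO intact than in WT intact muscle by 0.82 on the log2 scale (-0.82 ± 0.14, SE, 1.77-fold, limma adjusted p = 0.000189). This call held in every alternative run.

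Irs2 rose with ligation in BKO by 0.58 ± 0.14 (SE, limma adjusted p = 0.00236), and its change in WT was -0.01 ± 0.14 (adjusted p = 0.962). BKO ligated minus WT ligated was -0.23 ± 0.15 (adjusted p = 0.398), with a 95% interval of -0.54 to 0.09. The interaction of 0.59 ± 0.20 was not called (adjusted p = 0.0849), but was without BKO ligated 4 (0.75, adjusted p = 0.0256). It was also called with DESeq2 on the recovered reads (0.64, adjusted p = 0.0380) and with array weights (0.63, adjusted p = 0.0457). The ratio of Irs2 to Irs1 averaged 0.111 ± 0.023 in BKO ligated (SD, n = 4) and 0.172 ± 0.029 in WT ligated (SD, n = 4), which did not overlap. It averaged 0.0852 ± 0.0237 in BKO intact (SD, n = 5) and 0.130 ± 0.0121 in WT intact (SD, n = 5), which did. The log2 difference, BKO minus WT, was -0.64 in ligated muscle (exact two-sided permutation p = 0.0286, 0.0726 adjusted over 16) and -0.64 in intact muscle (exact p = 0.0159, 0.0508 adjusted).

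BMAL1 pairs with CLOCK and binds E-boxes, so the promoter windows of the 10 genes were read for the E-box CACGTG, and for the forkhead motif TGTTTAC and the nuclear receptor motif AGGTCA, on both strands. RefSeq promoter windows (GRCm38.p6, 250 bases before to 50 after a start) were found for 9 of the 10 genes, all but Insr. Of these 9, Irs1 and Irs2 were the 2 genes with an E-box, 115 and 44 bases upstream of the RefSeq start. The Irs2 window, chr8:11008880-11009179, lies wholly upstream of the locus given above, which ends at 11008458, so the annotations place that start differently. Both E-box stretches are shown with the E-box in capitals, on the strand of the gene (minus), because they carry the same letters around it: chr1:82291509-82291594 for Irs1 and chr8:11008930-11009013 for Irs2.
Irs1: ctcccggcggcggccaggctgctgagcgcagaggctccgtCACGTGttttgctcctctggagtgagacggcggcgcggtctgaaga
Irs2: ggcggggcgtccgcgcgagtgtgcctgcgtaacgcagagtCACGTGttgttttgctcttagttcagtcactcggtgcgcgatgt
The stretch gtCACGTGtt is common to both and was found in 25 of 32851 promoter windows. An E-box stands in 7.15% of all windows, and 8.09% of all genes with windows have one. Its presence is thus a description of these letters and not evidence of binding.

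Akt1 (chr12:112653821-112674884, minus strand) encodes the AKT kinase known for growth. Its normalized counts were 340, 274, 326 and 323 in BKO ligated, against 223, 212, 222, 227 and 231 in BKO intact libraries. They were 473, 302, 385 and 392 in WT ligated, against 275, 303, 297, 312 and 326 in WT intact libraries. All 5 BKO intact libraries lay below every other library. Akt1 rose with ligation by 0.49 ± 0.10 in BKO (log2 fold change ± SE, 1.41-fold, limma adjusted p = 0.000557) and by 0.34 ± 0.10 in WT (1.27-fold, adjusted p = 0.0120). The WT call ended without WT ligated 2 (adjusted p = 0.0682). The interaction was 0.15 ± 0.15 (adjusted p = 0.592), with a 95% interval of -0.15 to 0.46.

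Akt1 was lower in BKO intact than in WT intact muscle by 0.44 on the log2 scale (-0.44 ± 0.10, SE, limma adjusted p = 0.00313). In ligated muscle BKO minus WT was -0.28 ± 0.11 (adjusted p = 0.116), and -0.40 without WT ligated 4 (adjusted p = 0.0136). One of its 2 RefSeq promoter windows was the only window of the 10 genes with the forkhead motif, 161 bases upstream of the start, at chr12:112674999-112675085 on the minus strand. This stretch is shown because FOXO factors, which AKT kinases hold back, bind such motifs. The motif is in capitals.
Akt1: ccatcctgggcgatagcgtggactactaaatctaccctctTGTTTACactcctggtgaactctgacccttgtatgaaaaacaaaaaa
This motif stands in 3.65% of all windows and in a window of 4.05% of genes. The motif AGGTCA was found in windows of Igf1, Igf2, Igf1r and Akt1, and it stands in 16.3% of all windows and in a window of 18.1% of genes.

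Akt2 (chr7:27591552-27640826, plus strand) encodes the AKT kinase known for insulin-stimulated glucose uptake. Normalized counts of Akt2 were 1523, 1176, 1074 and 1424 in BKO ligated, against 2349, 2290, 2593, 2320 and 2042 in BKO intact libraries. They were 1037, 1035, 1254 and 1010 in WT ligated, against 1976, 1475, 1533, 1636 and 1861 in WT intact libraries. All BKO intact libraries lay above all WT intact ones, and in each genotype the ligated libraries lay below the intact ones. Akt2 fell with ligation by 0.85 on the log2 scale in BKO (-0.85 ± 0.11, SE, limma adjusted p = 2.69e-06) and by 0.64 in WT (-0.64 ± 0.11, adjusted p = 7.85e-05). It was higher in BKO intact than in WT intact muscle by 0.46 ± 0.10 (1.37-fold, adjusted p = 0.00308). These 3 calls held in every alternative run. In ligated muscle BKO minus WT was 0.25 ± 0.11 (adjusted p = 0.185), and the interaction was -0.20 ± 0.15 (adjusted p = 0.473).

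Akt1 and Akt2 thus moved opposite ways in the same 3 comparisons. The ratio of Akt2 to Akt1 within a library had a range of 3.298 to 4.48 in BKO ligated, against 8.82 to 11.7 in BKO intact. It was 2.19 to 3.42 in WT ligated, against 4.86 to 7.19 in WT intact. The groups were set apart without overlap by ligation in each genotype and by genotype in intact muscle, but not by genotype in ligated muscle. The mean ratio was 4.12 ± 0.55 in BKO ligated and 2.86 ± 0.58 in WT ligated muscle (SD, n = 4 each), and 10.4 ± 1.05 in BKO intact and 5.63 ± 0.92 in WT intact muscle (SD, n = 5 each). The log2 difference with ligation was -1.34 in BKO and -0.98 in WT (exact two-sided permutation p = 0.0159 each), and BKO minus WT in intact muscle was 0.89 (exact p = 0.00794). All 3 had a p of 0.0508 once adjusted over the 16 ratio tests.

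**Figure D3:**
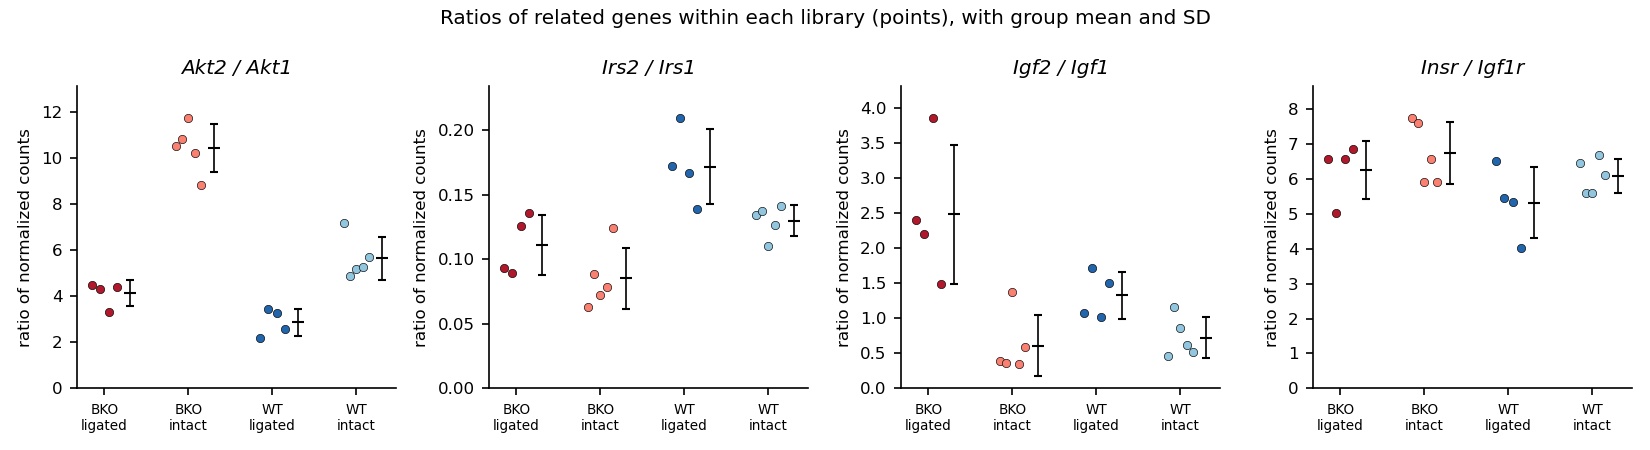
Ratio of normalized counts of related genes within each library, in BKO ligated, BKO intact, WT ligated and WT intact muscle; points are libraries, and bars give the mean and SD (n = 4 ligated, n = 5 intact). The Akt2 to Akt1 ratio is highest in BKO intact, at 8.82 to 11.7, and lowest in WT ligated, at 2.19 to 3.42.

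Pik3r1 (chr13:101680563-101768217, minus strand) encodes the regulatory subunit p85 alpha of phosphoinositide 3-kinase. Normalized counts of Pik3r1 were 588, 988, 582 and 587 in BKO ligated, against 469, 510, 586, 624 and 551 in BKO intact libraries. They were 463, 617, 570 and 588 in WT ligated, against 483, 584, 484, 451 and 454 in WT intact libraries. BKO ligated 4 stood apart above all others, and all compared groups overlapped. Pik3r1 was the 1 gene of the 10 with no limma call in any of the 5 comparisons as scaled by the authors. Its changes with ligation were 0.29 ± 0.14 in BKO (SE, limma adjusted p = 0.0887) and 0.19 ± 0.14 in WT (adjusted p = 0.302), with 95% intervals of 0.0043 to 0.58 and -0.10 to 0.47. The change in BKO was called with edgeR (0.36, adjusted p = 0.0399) and with DESeq2 (0.34, adjusted p = 0.0475) on the recovered reads. With the same sum over genes not encoded by mitochondria, Pik3r1 was called higher with ligation in both genotypes, by 0.41 in BKO (adjusted p = 0.00962) and by 0.46 in WT (adjusted p = 0.00475).

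Igfbp5 (chr1:72857932-72874884, minus strand) encodes an IGF binding protein secreted in muscle, which can hold IGFs back or present them to their receptor. Normalized counts of Igfbp5 were 2726, 2117, 1427 and 2220 in BKO ligated, against 2529, 2225, 2351, 1549 and 2254 in BKO intact libraries. They were 2627, 2484, 3740 and 3734 in WT ligated, against 4339, 6507, 5114, 4627 and 3962 in WT intact libraries. All WT intact libraries lay above every library of the other groups. Igfbp5 was lower in BKO intact than in WT intact muscle by 1.17 on the log2 scale (-1.17 ± 0.17, SE, 2.25-fold, limma adjusted p = 4.90e-05), a call that held in every alternative run.

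With ligation, Igfbp5 changed by -0.06 ± 0.18 in BKO (SE, limma adjusted p = 0.815), with a 95% interval of -0.43 to 0.32. It fell in WT by 0.65 on the log2 scale (-0.65 ± 0.18, adjusted p = 0.00702), a call lost with the same sum over genes not encoded by mitochondria (-0.37, adjusted p = 0.0819). The interaction of 0.59 ± 0.25 was not called (adjusted p = 0.177). In ligated muscle BKO minus WT was -0.58 ± 0.19 (adjusted p = 0.0625). It was called without BKO ligated 2 (-0.71, adjusted p = 0.0289), WT ligated 4 (-0.68, adjusted p = 0.0374), BKO intact 4 (-0.58, adjusted p = 0.0445) or WT intact 3 (-0.58, adjusted p = 0.0472), with DESeq2 on the recovered reads (-0.56, adjusted p = 0.0359), with array weights (-0.62, adjusted p = 0.0445) and with the same sum over genes not encoded by mitochondria (-0.66, adjusted p = 0.0216).

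Around the 10 genes, 60 other genes of the route were listed by role, and 54 of them were tested. Igfbp1 and Irs4 were not analysed here, and Igfbp2, Pappa2, Insrr and Socs1 were too low to be tested. With ligation in BKO 14 of the 54 rose and 14 fell (51.9% called, against 47.2% of all tested genes). With ligation in WT 13 rose and 10 fell (42.6%, against 39.8%). In BKO against WT ligated muscle 1 was higher and 4 lower (9.26%, against 8.84%), and in intact muscle 3 were higher and 9 lower (22.2%, against 18.3%). The interaction was called for 1 (1.85%, against 6.01%). Each share was near that of all genes or, for the interaction, under it.

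Among the other binding proteins and their proteases, 3 of 9 rose and 2 fell with ligation in BKO, and 4 rose in WT. Igfbp3, the main IGF carrier of plasma, averaged 248 ± 15.9 normalized counts in BKO ligated (SD, n = 4) and 84.9 ± 8.65 in BKO intact (SD, n = 5), a log2 fold change of 1.54 ± 0.11 (SE, limma adjusted p = 1.48e-09). In WT it averaged 201 ± 18.5 in ligated (SD, n = 4) and 82.1 ± 7.23 in intact muscle (SD, n = 5), a change of 1.28 ± 0.11 (adjusted p = 1.29e-08). Igfbp7 rose by 0.91 ± 0.10 in BKO (adjusted p = 3.90e-07) and by 1.00 ± 0.10 in WT (adjusted p = 1.40e-07).

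Among 10 other receptors and adaptors, 4 rose and 1 fell with ligation in BKO, and 4 rose in WT. Socs3, which restrains insulin and cytokine receptors, rose by 1.74 ± 0.35 (SE, limma adjusted p = 0.000389) in BKO and by 1.48 ± 0.35 (adjusted p = 0.00202) in WT. Shc1, an adaptor to the RAS route, rose by 0.84 ± 0.15 (adjusted p = 0.000136) in BKO and by 0.76 ± 0.15 (adjusted p = 0.000448) in WT. Grb14, which binds and inhibits the insulin receptor, was higher in BKO intact (304 ± 75.4, SD, n = 5) than in WT intact muscle (142 ± 25.3, SD, n = 5), by 1.08 ± 0.16 (SE, adjusted p = 5.35e-05). Gab1, a docking protein, was lower in BKO by 0.58 on the log2 scale in ligated muscle (-0.58 ± 0.11, adjusted p = 0.00153) and by 0.47 in intact muscle (-0.47 ± 0.10, adjusted p = 0.00181).

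Among 13 other phosphoinositide 3-kinase and AKT kinases and phosphatases, 4 rose and 4 fell with ligation in BKO, and 2 rose and 3 fell in WT. Pik3ca, the catalytic subunit p110 alpha, was higher in BKO than in WT by 0.52 ± 0.15 (SE, limma adjusted p = 0.0323) in ligated and by 0.77 ± 0.13 (adjusted p = 0.000335) in intact muscle. The ligated call ended without BKO ligated 2 or 6 or WT ligated 2, 5 or 6 (adjusted p 0.0610 to 0.118). Pik3ip1, an inhibitor of the kinase, fell with ligation by 0.997 in BKO (-0.997 ± 0.16, adjusted p = 5.29e-05) and by 0.88 in WT (-0.88 ± 0.16, adjusted p = 0.000236).

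In the mTOR branch, 2 of 13 rose and 4 fell with ligation in BKO, and 1 rose and 3 fell in WT. Ddit4, a stress-induced inhibitor of mTOR complex 1, rose in WT by 1.08 ± 0.23 (SE, limma adjusted p = 0.000699), and in BKO by 0.97 ± 0.23 (adjusted p = 0.00145). Rps6kb1, an S6 kinase that mTOR complex 1 activates, fell by 0.53 in BKO (-0.53 ± 0.12, adjusted p = 0.00112) and by 0.96 in WT (-0.96 ± 0.12, adjusted p = 2.46e-06). The mTOR branch genes with the smallest p in BKO were Tsc1 and Rptor. With ligation in BKO, Tsc1 changed by -0.53 ± 0.11 (adjusted p = 0.000625) and Rptor by 0.57 ± 0.13 (adjusted p = 0.00109). In the glucose and FOXO branch, 1 of 8 rose and 3 fell with ligation in BKO, and 1 rose and 4 fell in WT. Slc2a4, the insulin-responsive glucose transporter GLUT4, fell by 0.76 in BKO (-0.76 ± 0.11, adjusted p = 1.43e-05) and by 0.51 in WT (-0.51 ± 0.11, adjusted p = 0.00103); the WT call was lost with the same sum over genes not encoded by mitochondria (-0.23, adjusted p = 0.0967).

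Tbc1d1, a regulator of GLUT4 traffic and a substrate of AKT kinases, was called in all 4 pairwise comparisons. It averaged 234 ± 65.6 normalized counts in BKO ligated and 725 ± 170 in WT ligated muscle (SD, n = 4 each), and 741 ± 169 in BKO intact and 1348 ± 83.1 in WT intact muscle (SD, n = 5 each). It fell with ligation by 1.67 in BKO (-1.67 ± 0.18, SE, limma adjusted p = 2.92e-07) and by 0.92 in WT (-0.92 ± 0.18, adjusted p = 0.000333). BKO minus WT was -1.65 ± 0.19 in ligated (adjusted p = 3.49e-06) and -0.89 ± 0.17 in intact muscle (adjusted p = 0.000684). Gsk3b, a kinase that AKT inhibits, fell with ligation in WT by 0.57 (-0.57 ± 0.09, adjusted p = 2.84e-05), to 789 ± 36.8 (SD, n = 4). It was already lower in BKO intact (800 ± 91.6, SD, n = 5) than in WT intact muscle (1170 ± 99.8, SD, n = 5), by 0.55 (-0.55 ± 0.08, SE, adjusted p = 5.92e-05). Gsk3b was the 1 companion with a called interaction, 0.43 ± 0.12 (adjusted p = 0.0394). That call was lost with the same sum over genes not encoded by mitochondria (0.28, adjusted p = 0.111).

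**Figure D4:**
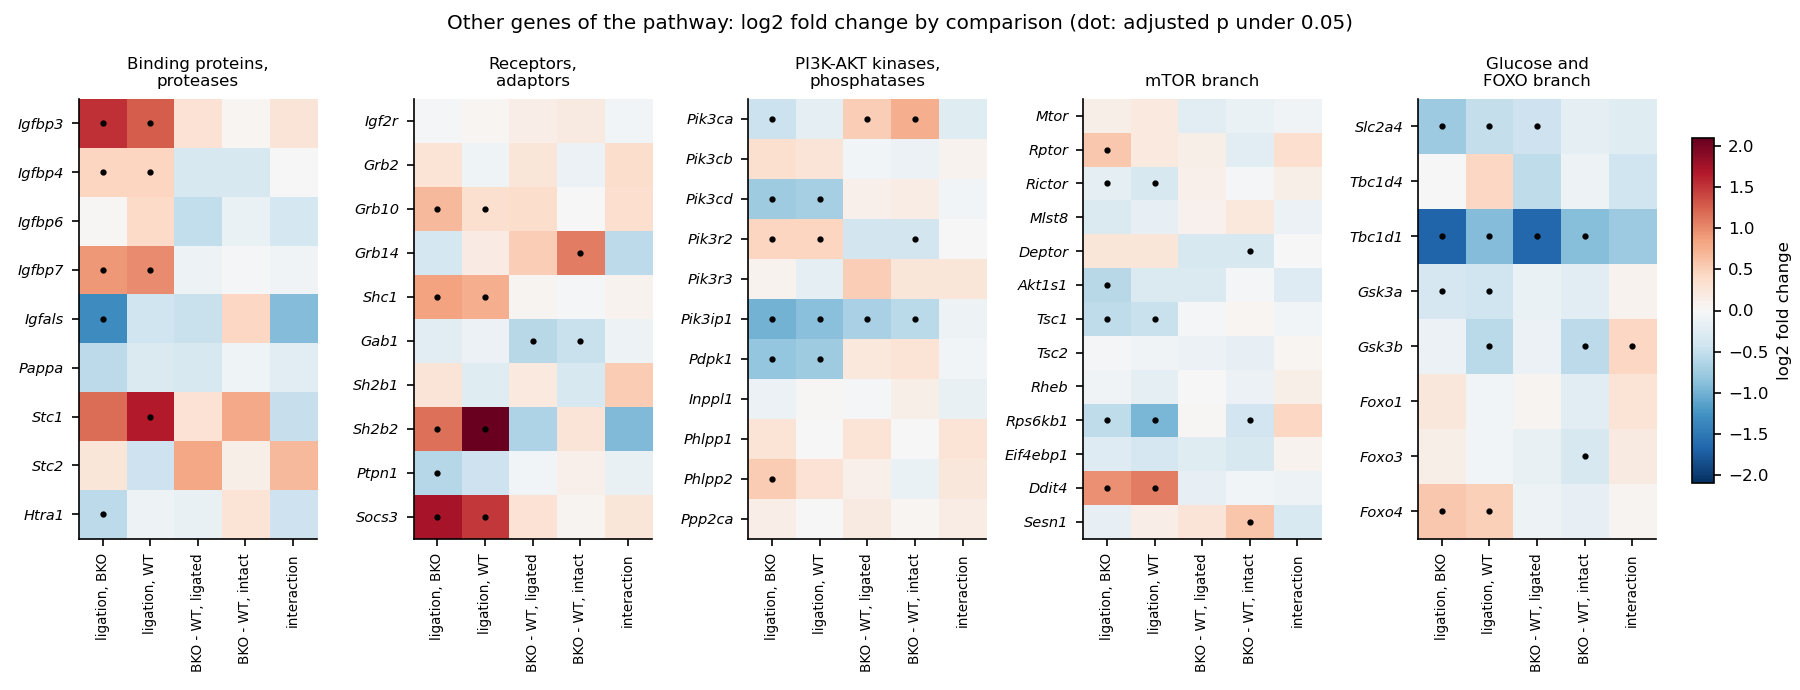
Log2 fold changes of 51 other tested genes of the 5 role lists (H19 is not drawn) in 5 comparisons, in which red is higher and blue lower in the ligated limb or in BKO, and a dot marks an adjusted p under 0.05. Igfbp3, Igfbp7, Shc1 and Socs3 are red with ligation in both genotypes, and Tbc1d1 is blue in all 4 pairwise comparisons.

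For each of the 10 genes the other genes with the most similar levels were sought among 8556 whose normalized counts averaged 50 or more, by Pearson's r of log2 values over the 18 libraries. The libraries share group and scaling, so r is a description. For Akt2 these were Tecr (r = 0.974), Eloa (0.963) and Ginm1 (0.955), and with group means removed r was 0.806, 0.878 and 0.786. For Igf2 they were Hnrnpa0 (0.965), Junb (0.958) and Ywhaz (0.956), with 0.551, 0.725 and 0.525 once group means were removed. For Akt1 they were Snrpb (0.932), Gprc5b (0.926) and Rps6ka4 (0.901). For Igfbp5 they were Carm1 (0.926), the clock gene Nr1d1 (0.923) and Fbxo31 (0.921), with 0.678, 0.647 and 0.670 within groups. For Irs2 they were Cltc, Kcnc1 and Cln6 (0.898, 0.890 and 0.878), and for Insr Proser1, Ankrd52 and Nsd3 (0.877, 0.808 and 0.808). For Igf1r they were Rab18, Ddx6 and Npepps (0.863, 0.853 and 0.845), and for Igf1 Nadk, Sec61a1 and Angptl1 (0.855, 0.845 and 0.831). Pik3r1 and Irs1 had the weakest likeness, with Fbxl20 at 0.782 and Ncoa1 at 0.767 at best.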

How the data were processed

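The table deposited by the authors holds normalized counts (unit: signal), with no correction for gene length. Per the submitters' processing notes, Trimmomatic 0.33, STAR 2.5.2, RSEM 1.3.3 and DESeq2, with no version, were used with mm10. Per the labels' protocols, libraries came from a TruSeq stranded kit for total RNA. Strand setting and annotation used in counting have no source here, so overlapping and antisense genes are uncertain; annotated ones in the table reached at most 1.86% of a gene's mean. Within 0.001 of a whole number, 100% of values in every library were whole reads times 1 factor per library, and these recovered reads gave the depth and the edgeR 4.0.16 and DESeq2 1.42.0 alternatives. In BKO ligated 2 and WT intact 6 that factor was close to 1, which makes this less telling.

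Genes with a mean of at least 10 (12262) were fitted with limma 3.58.1 in R 4.3.3 on log2(value + 1), with 4 group means, eBayes with an intensity trend and Benjamini-Hochberg adjustment. Fold changes are on that scale, which understates changes of low genes. Other pseudocounts, filters and scalings, array weights, a replicate block and leaving out libraries were tried. The script was tested on simulated data. Ratios were tested by exact two-sided permutation over libraries. The 10 genes, the 60 companion genes (up to 3 with the smallest p among those called were named per list and comparison), the markers and the motifs were chosen with earlier results of these data known; 2 companion genes are counted but not reported here. Loci are from GENCODE M21 (GRCm38). The labels do not say whether libraries with 1 number share a mouse, nor that each is its own animal, so p-values here cover the spread among samples, which may be technical. Read number limits the precision of low genes, for counting error only.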

Additional observations from a re-analysis of the deposited data

Results flagged for a closer look

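In 4 of the 40 groups formed by the 10 genes and 4 conditions, 1 library stood far from the rest of its group by the rule used. About 1 in 20 was taken as the rate by chance. That rate was not tested for groups this small, so no excess is claimed. Igf2 was highest in BKO intact 3 at 172 normalized counts, and Akt2 in WT ligated 5 at 1254. Pik3r1 was highest in BKO ligated 4 at 988 and in WT intact 3 at 584.

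The response to ligation differed between BKO and WT, as tested by the interaction in limma, for Igf2 by 1.06 (adjusted p = 0.0466), for Insr by 0.45 (adjusted p = 0.0136), for Irs1 by 0.59 (adjusted p = 0.0375) and for the companion Gsk3b by 0.43 (adjusted p = 0.0394), all on the log2 scale. The Igf2 call ended when any 1 of 14 libraries was left out and the Irs1 call when any 1 of 11 was, while the Insr call held each time. The Gsk3b call ended when any 1 of 10 libraries was left out (adjusted p 0.0518 to 0.0835). Gsk3b kept its call without BKO ligated 5 or 6, BKO intact 1, 3 or 4, or WT intact 2, 5 or 6. Each of these interaction calls was lost with the same sum over genes not encoded by mitochondria (adjusted p 0.0536 to 0.111).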

How the results depend on the processing

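Of the 21 calls among the 10 genes, 15 held when any single library was left out and 11 in every alternative run. Of these 11, the ligation effects are those on Igf2 and Akt2 in both genotypes, Akt1 in BKO, Igf1 in WT and Insr in BKO. The rest are the intact genotype differences of Irs2, Akt1, Akt2 and Igfbp5. The replicate block by genotype and number was not run for genotype differences, so these calls could not be lost under it. Calls between ligated groups and of the interaction were the least stable: the ones between ligated groups came to 1 called gene of the 10 with no filter, 1 with the same sum over genes not encoded by mitochondria (not Insr or Irs1 but Igfbp5, BKO minus WT -0.66, adjusted p = 0.0216), 0 with only the 2 groups fitted and 0 to 3 with 1 library left out, and 616 of all genes without BKO ligated 4 and 5, the 2 with most mt-Rnr2 (chosen after seeing the data). The interaction gave 1 of the 10 with no filter, 0 with the same sum and 1 to 3 with 1 library left out. Over all genes it gave 1297 with the same sum, 1158 with DESeq2, 269 without BKO ligated 4 and 5, and 402 to 1015 with 1 library left out, against 737.

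The same-sum scaling moved the median of all genes by 0.12 with ligation in BKO, 0.27 in WT, -0.08 and 0.07 for BKO minus WT in ligated and intact muscle, and -0.15 for the interaction. The share of calls that were higher was then 60.1%, 79.5%, 27.1%, 62.1% and 17.96%, against 46.9%, 47.0%, 47.0%, 46.7% and 50.6%. No called change of the 10 genes turned round under any scaling.

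Values that changed sign were uncalled and mostly near 0, and the cause was not tested. With the same sum they were Igf1r in BKO minus WT ligated muscle (-0.049), Insr with ligation in WT (0.12), Irs2 with ligation in WT (0.26), the interactions of Akt1 (-0.00030) and Pik3r1 (-0.047), and Igfbp5 with ligation in BKO (0.064). Irs2 with ligation in WT was 0.016 with TMM, 0.020 with edgeR and 0.0048 with DESeq2. Without BKO ligated 4 and 5, Igf1r in ligated muscle was -0.10, the Pik3r1 interaction -0.078 and Igfbp5 with ligation in BKO 0.19. With 1 library left out, the interactions ran from -0.31 to 0.044 for Igf1 and -0.083 to 0.17 for Pik3r1, Igf1r from -0.070 to 0.14 in ligated muscle and -0.056 to 0.15 with ligation in WT, Igfbp5 from -0.19 to 0.12 with ligation in BKO and Irs2 from -0.054 to 0.078 with ligation in WT.

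Without BKO ligated 4 and 5, calls also ended for the Igf2 interaction (0.90, adjusted p = 0.200), Igf1r with ligation in BKO (0.26, 0.316) and Insr in ligated muscle (0.25, 0.152). New calls were Igf1 (0.65, adjusted p = 0.0394) and Irs1 (0.37, 0.0416) with ligation in BKO, the Irs2 interaction (0.82, 0.0331) and Akt2 in BKO against WT ligated muscle (0.45, 0.0345).

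Libraries with 1 number in 1 genotype did not deviate together (r -0.064 to 0.048 for the 7 that have a partner), so no pairing was used; whether they share a mouse is not given by the labels. A replicate block by number and genotype left 382 interaction calls and gave 0.028 for Irs2 with ligation in WT and 0.028 for Igfbp5 with ligation in BKO; a replicate block by number alone gave 0.083 for Igfbp5. Under the first block the calls of Igf1r (adjusted p = 0.0541) and Irs2 with ligation in BKO (adjusted p = 0.0556), of Akt1 with ligation in WT (0.0511) and of the Insr interaction (0.0606) ended, and under the block by number alone that of Igf1r did (0.0514).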
